A study of Anas platyrhynchos with 6 samples.

Results

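The mitogen-activated protein kinase (MAPK) pathway genes of the duck ovary were described in RNA sequencing libraries of ovarian tissue from 6 ducks (Anas platyrhynchos). The genes were chosen by symbol alone, as the rows of the deposited table named DUSP, MAPK, MAP2K, MAP3K, MAP4K, MAPKAPK, SPRY or SPRED with a number, and the row with the highest mean level was used for each symbol. This gave 57 genes of 16450 in the table. The ducks were 71 weeks old and came from a full-sib family. There were 3 ducks in each of 2 groups, HEN for high egg number and LEN for low egg number. All of them were killed after a period without feed. No genotype, breed or treatment was given for either group, and the labels do not say which follicles or layers of the ovary were sampled. Each duck gave 1 library. Levels are FPKM (fragments scaled to the length of the transcript and the number of fragments in the library), a length-corrected unit in which genes can be compared with each other.

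MAPK pathways pass a signal down a chain of kinases. A MAP3K phosphorylates a MAP2K, which phosphorylates a MAPK, and MAP4Ks act further upstream. The classical chains end in the ERK kinases, which respond to growth factors, and in the JNK and p38 kinases, which respond to stress and cytokines. Dual-specificity phosphatases (DUSPs) remove the activating phosphates from MAPKs, and many of them are themselves induced by the pathway, while SPRY and SPRED proteins restrain it between the receptor and RAF. In the ovary, ERK signalling carries the response of follicle cells to gonadotropins and growth factors, and the oocyte kinase MOS drives an ERK chain during meiosis.

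All tiers of the pathway were present in the ovaries. Of the 57 genes, 55 had a value above 0 in every library, 18 averaged 20 FPKM or more over the 6 libraries, and 3 stayed under a mean of 1 FPKM, the minimum for testing. The 3 were phosphatase genes. DUSP13 was at 0.0820, 0 and 0 FPKM in the HEN ducks against 0, 0.0785 and 0 FPKM in the LEN ducks. DUSP27, a muscle gene in mammals, lay between 0.0146 and 0.183 FPKM. DUSP28 was at 1.20, 0 and 0.455 FPKM in the HEN ducks against 0.323, 1.46 and 1.69 FPKM in the LEN ducks, so that it was low in both groups and listed at 0 in HEN replicate 2. The highest mean belonged to DUSP14, at 92.8 FPKM, and high means were also found for MAP2K1 at 83.9, MAPK14 at 68.6 and DUSP1 at 63.2 FPKM. MAP2K1 encodes MEK1, a kinase of the ERK chain, and MAPK14 encodes p38 alpha. These means are not an ordering of separate levels, because the values of DUSP14 alone ran from 15.2 to 169 FPKM over the libraries, and those of MAP2K1, MAPK14 and DUSP1 lay between 53.4 and 137 FPKM with overlapping ranges.

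**Figure D1:**
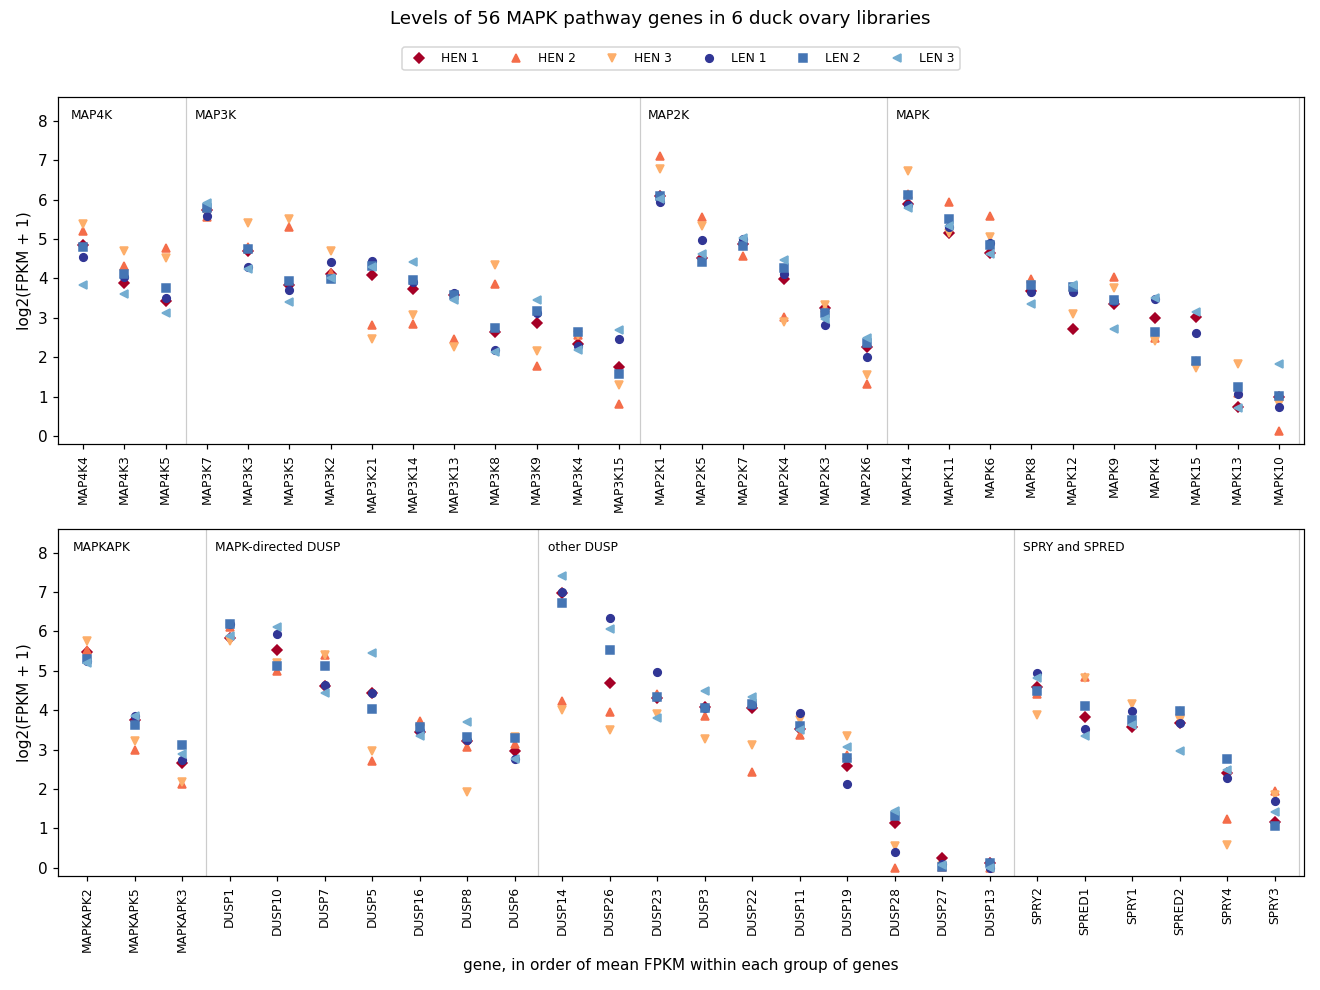
Level of 56 of the genes as log2(FPKM + 1) on the vertical axis in each of 6 libraries (red to orange, HEN replicates 1 to 3; blue, LEN replicates 1 to 3), in order of mean level within each group of genes. For DUSP14, MAP3K5 and MAP3K8 the symbols of HEN replicates 2 and 3 lie apart from those of the other 4 libraries, whereas for MAP3K7 all 6 lie together between 46.5 and 59.2 FPKM.

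The comparison of HEN with LEN asks which genes differ between ovaries of ducks with many and with few eggs. Of the 57 genes, 54 entered the test, 27 with a higher and 27 with a lower mean level in HEN on the log2(FPKM + 1) scale. limma called none of the 54 at an adjusted p under 0.05, as it called none of all 13328 transcripts (0.0%). The smallest adjusted p among the 54 was 0.226. The unadjusted p lay under 0.05 for 10 of the 54 genes (18.5%), against 22.0% of all transcripts, with 3 of them higher in HEN (5.1% of all transcripts were) and 7 lower (16.9% of all transcripts). It did so for 30 genes without HEN replicate 1 (55.9% of all transcripts), for 8 without LEN replicate 2 (14.8%, against 14.7% of all transcripts) and for 2 each without HEN replicate 2 (4.68% of all transcripts) and LEN replicate 1 (7.47%). It did so for 1 each without HEN replicate 3 (4.62% of all transcripts) and LEN replicate 3 (4.37%). Levels of the groups did not overlap for 12 of the 54 genes (22.2%), against 20.3% of all transcripts, with HEN above LEN for 4 (6.92% of all transcripts) and below for 8 (13.4%). These shares are near those of all transcripts. The groups did not overlap for 36 genes without HEN replicate 1 (66.7%, against 70.5% of all transcripts) and for 29 without LEN replicate 2 (53.7%, against 39.1%). For any other single library left out, 12 to 17 genes did not overlap, and 3033 to 3616 of all 13328 transcripts. Fewer values can overlap whenever a library is left out. With 3 ducks in each group, the smallest two-sided p of an exact permutation test is 0.1.

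Differences are given as HEN minus LEN in mean log2(FPKM + 1). The median difference of the 54 genes was -0.038, against -0.24 for all transcripts. Scaling by trimmed means, to the upper quartile or by quantiles moved the median of all transcripts to 0.018, -0.020 and 0.062, and that of the 54 genes to 0.24, 0.20 and 0.21. The unadjusted calls then stood at 7 higher and 5 lower, 7 higher and 6 lower, and 7 higher and 4 lower, in place of 3 higher and 7 lower. Over all 13328 transcripts the counts moved the same way. They were 1241 higher and 1713 lower, 1103 and 1841, and 1342 and 1604, in place of 680 and 2249. Differences below rest on the values as deposited, and those from all 6 libraries should be read against the -0.24 of all transcripts. Without HEN replicate 1 the median of all transcripts was -0.36, and without HEN replicates 2 and 3 it was -0.0012. For any other single library left out it lay between -0.24 and -0.17. Differences from those fits should be read against these medians. Under the 3 scalings the differences of MAP3K7, MAP2K7, DUSP1, DUSP11 and DUSP23 changed from slightly negative to slightly positive, and that of MAPK15 did so under quantiles only.

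**Figure D2:**
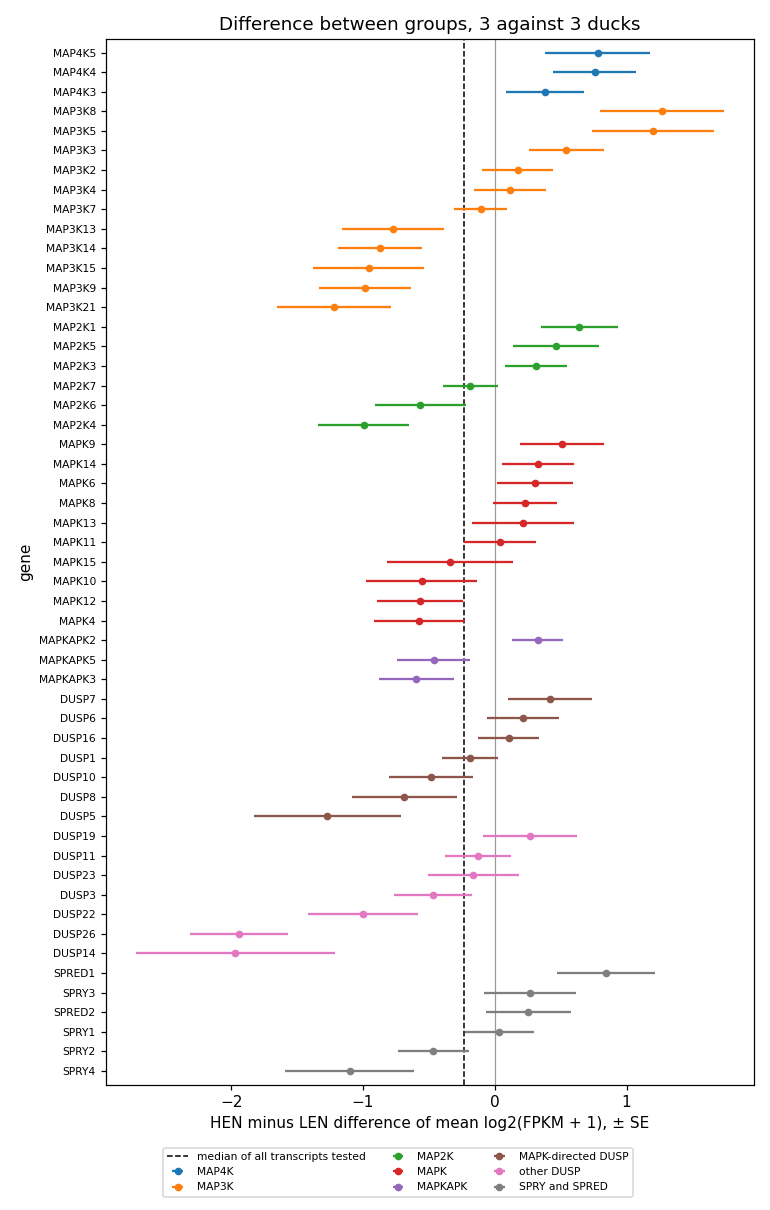
Difference of mean log2(FPKM + 1) between HEN and LEN (horizontal axis, ± SE, 3 ducks per group) for 53 of the genes tested, coloured by group of genes; the dashed line marks the median of all transcripts, -0.24. The 3 MAP4K genes lie to the right of 0, the MAP3K genes spread from -1.22 for MAP3K21 to 1.27 for MAP3K8, and DUSP14 and DUSP26 lie farthest to the left.

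The HEN libraries were not alike. The inferred depth was 18213744 to 19831761 fragments per library. Over the 54 genes, log2 levels correlated across genes at 0.96 between HEN replicates 2 and 3, at 0.83 and 0.80 between these and HEN replicate 1, and at 0.94 to 0.97 between HEN replicate 1 and the LEN libraries (genes are not independent replicates). Of 24 oocyte and germ cell markers listed, 13 were found in the table. Their summed level was 912 FPKM in HEN replicate 1, 12.8 and 13.6 FPKM in HEN replicates 2 and 3, and 931 to 2232 FPKM in LEN. The egg coat gene ZP4 was at 74.2, 0.0985 and 0.608 FPKM in the HEN ducks against 102, 92.4 and 275 FPKM in the LEN ducks, and the germ cell genes DDX4 and DAZL were listed at 0 in HEN replicate 2. The 10 granulosa markers found of 16 summed to 544, 105 and 139 FPKM in HEN and 350.3 to 560.2 FPKM in LEN, and the 18 cell cycle genes found of 25 to 1414, 116 and 205 FPKM in HEN and 1235 to 1815 FPKM in LEN. The 16 leukocyte markers found of 21 summed to 803, 1311 and 1695 FPKM in HEN and 466 to 836 FPKM in LEN, with the B cell gene PAX5 listed at 0 in HEN replicate 1. The 14 endothelial markers found of 18 summed to 259.7, 549 and 489 FPKM in HEN and 182 to 311 FPKM in LEN, and the 4 erythrocyte markers found of 11 to 51.8, 139 and 556 FPKM in HEN and 52.9 to 104 FPKM in LEN. Theca and stroma markers (11 of 13 found) summed to 1805 to 2283 FPKM in HEN and 702 to 1491 FPKM in LEN, and smooth muscle markers (10 of 15 found) to 1219 to 1552 and 564 to 1007 FPKM, so that both of these sums were higher in each HEN library than in any LEN library. Single markers did not all follow their sums. Of those tested, 10 leukocyte markers had a higher and 5 a lower mean level in HEN. For smooth muscle 7 were higher and 3 lower, for theca and stroma 10 and 1, and for granulosa 2 and 8. For endothelium 13 were higher and 1 lower, and for oocyte and germ cell 1 and 12. Fewer cells of a type and less RNA per cell cannot be told apart in such tissue, and the part of these markers in the differences below was not tested.

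The same split ran through the pathway genes. For 13 of the 54 genes (24.1%, against 12.1% of all transcripts) HEN replicate 1 lay within the LEN range while HEN replicates 2 and 3 both lay above it, and for 11 (20.4%, against 28.3% of all transcripts) the latter both lay below it. The median SD of a gene on the log2 scale was 0.43 within HEN and 0.25 within LEN, against 0.47 and 0.28 over all transcripts. Without HEN replicate 1, limma called 22 of the 54 genes (40.7%, against 48.8% of all transcripts), 8 as higher in HEN (14.8%, against 11.8%) and 14 as lower (25.9%, against 37.0%). HEN replicate 1 was seen to resemble LEN in these same data. Adjusted p from the fit without it, given for single genes below, describe that split and are not separate support for a group difference. Array weights give unlike libraries less weight, and HEN replicate 1 had the lowest, 0.114 against 0.556 to 5.62 for the others. With them limma called 31 (57.4%, against 59.4%), in a fit that is thus not independent of leaving out HEN replicate 1. Without HEN replicates 2 and 3 it called 0 of the 54 (0.0075% of all transcripts), with 2 at an unadjusted p under 0.05 (2.75% of all transcripts were), and there the lone HEN library is assumed to vary like the LEN libraries. On leaving out any other single library limma called 0 of the 54 and 0 of all transcripts, of which 583 to 1960 had an unadjusted p under 0.05.

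**Figure D3:**
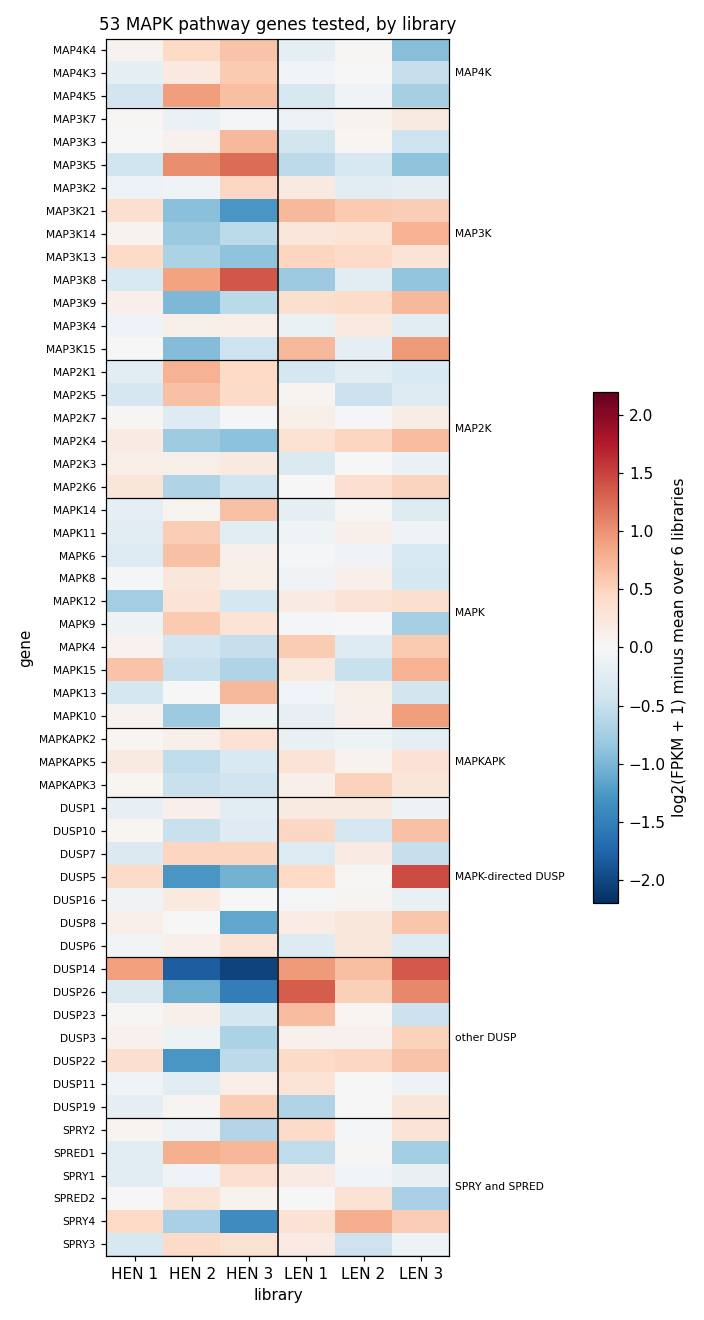
log2(FPKM + 1) of each of 53 genes minus its mean over the 6 libraries (colour, red above and blue below the mean), with libraries in columns and genes in rows by group of genes. HEN replicate 1 resembles the LEN columns for DUSP14, MAP3K5 and MAP2K4, whereas DUSP26 is below its mean in all 3 HEN libraries.

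At the top of the chain stand the MAP4K genes, whose 3 measured members had a median difference of 0.76, or -0.025 without HEN replicates 2 and 3. MAP4K4, a kinase of the STE20 family that acts towards JNK, was at 27.8, 35.7 and 40.9 FPKM across HEN replicates 1, 2 and 3 and at 22.3, 26.7 and 13.2 FPKM across LEN replicates 1, 2 and 3. All HEN values lay above all LEN values, HEN replicate 1 and LEN replicate 2 being the closest. The difference was 0.76 ± 0.32 (SE), with an adjusted p of 0.226 in limma. It was 0.91 without HEN replicate 1 (limma adjusted p = 0.0318), 0.48 without LEN replicate 3 and 0.46 without HEN replicates 2 and 3. MAP4K5 was at 9.81, 26.2 and 21.9 FPKM in the HEN ducks against 10.2, 12.6 and 7.72 FPKM in the LEN ducks. HEN replicates 2 and 3 stood above the LEN range and HEN replicate 1 within it, and the difference of 0.78 ± 0.40 (SE) became 1.18 without HEN replicate 1 (limma adjusted p = 0.00568), 0.52 without HEN replicate 2 and -0.025 without HEN replicates 2 and 3. MAP4K3, which signals amino acid supply as well as stress, was at 13.7, 18.8 and 24.7 FPKM in the HEN ducks against 15.4, 16.3 and 11.1 FPKM in the LEN ducks, a difference of 0.38 ± 0.30 (SE) with overlapping groups. It was 0.18 without HEN replicate 3, 0.22 without LEN replicate 3 and -0.032 without HEN replicates 2 and 3.

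The 11 MAP3K genes diverged, with 5 higher and 6 lower in HEN and a median of -0.11 (0.12 to 0.17 after scaling). The most abundant was MAP3K7, which encodes TAK1, the kinase that links cytokine and TGF-beta receptors to JNK, p38 and NF-kappaB. It was at 52.1, 46.5 and 49.6 FPKM across HEN replicates 1, 2 and 3 and at 47.0, 54.4 and 59.2 FPKM across LEN replicates 1, 2 and 3. The 6 values lay within a narrow range and the groups overlapped, with a difference of -0.11 ± 0.20 (SE). In HEN replicates 2 and 3 the levels of MAP3K3, MAP3K5 and MAP3K8 lay above the LEN range.

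MAP3K8, known as TPL2, activates ERK downstream of inflammatory receptors. It was at 5.28, 13.6 and 19.4 FPKM across HEN replicates 1, 2 and 3 and at 3.57, 5.69 and 3.37 FPKM across LEN replicates 1, 2 and 3. HEN replicate 1 lay within the LEN range, and the difference was 1.27 ± 0.47 (SE), with an adjusted p of 0.226 in limma. It was 1.76 without HEN replicate 1 (adjusted p = 0.00171) and 0.30 without HEN replicates 2 and 3. MAP3K5, the stress kinase ASK1, was named after its values were seen. It was at 13.3, 38.7 and 44.5 FPKM across HEN replicates 1, 2 and 3 and at 12.1, 14.3 and 9.60 FPKM across LEN replicates 1, 2 and 3. The pattern matched that of MAP3K8, with HEN replicates 2 and 3 apart from the other 4 libraries. The difference was 1.20 ± 0.46 (SE), or 1.72 without HEN replicate 1 (limma adjusted p = 0.000589) and 0.16 without HEN replicates 2 and 3. The leukocyte, endothelial and erythrocyte marker sums were highest in the same pair of libraries, and the oocyte, granulosa and cell cycle sums were lowest. Any relation of these sums to the MAP3K genes was not tested.

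On the lower side were MAP3K21, MAP3K9, MAP3K14, MAP3K13 and MAP3K15. MAP3K9 and MAP3K21 encode mixed lineage kinases, MLK1 and MLK4. MAP3K21 was at 16.1, 6.04 and 4.50 FPKM across HEN replicates 1, 2 and 3 and at 20.8, 18.8 and 18.4 FPKM across LEN replicates 1, 2 and 3. Each HEN value lay below each LEN value, with HEN replicate 1 much nearer to LEN than to the other HEN libraries. The difference was -1.22 ± 0.43 (SE) (limma adjusted p = 0.226), or -1.71 without HEN replicate 1 and -0.25 without HEN replicates 2 and 3. MAP3K9 was at 6.24, 2.39 and 3.47 FPKM across HEN replicates 1, 2 and 3 and at 7.65, 7.94 and 9.99 FPKM across LEN replicates 1, 2 and 3, again without overlap, and differed by -0.98 ± 0.35 (SE), or -1.28 and -0.39 in the same alternatives. MAP3K14, the NF-kappaB-inducing kinase NIK, was at 12.2, 6.13 and 7.46 FPKM in the HEN ducks against 13.9, 14.4 and 20.3 FPKM in the LEN ducks. Its groups did not overlap either, and the difference was -0.87 ± 0.32 (SE), or -1.13 without HEN replicate 1 and -0.36 without HEN replicates 2 and 3. MAP3K13, a leucine zipper kinase close to the mixed lineage group, overlapped between groups and differed by -0.77 ± 0.39 (SE), or 0.036 without HEN replicates 2 and 3. MAP3K15, or ASK3, also overlapped and differed by -0.96 ± 0.42 (SE). All of these 5 passed as lower without HEN replicate 1, with adjusted p of 0.000594 for MAP3K21 to 0.0365 for MAP3K15 in limma. That fit also called 37.0% of all transcripts as lower. The other 3 MAP3K genes, MAP3K2, MAP3K3 and MAP3K4, differed by 0.12 to 0.54, with overlapping groups.

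Among the 6 MAP2K genes, 3 were higher and 3 lower in HEN (median 0.063, or 0.29 to 0.37 after scaling and -0.044 without HEN replicates 2 and 3). MAP2K1 (ENSAPLG00000015480, scaffold KB742800.1 from 574303 to 596101), which encodes the ERK activator MEK1, was at 66.9, 137 and 109 FPKM across HEN replicates 1, 2 and 3 and at 60.8, 66.9 and 63.3 FPKM across LEN replicates 1, 2 and 3. The LEN values were close together, HEN replicate 1 exceeded the highest of them by less than 0.1 FPKM, and HEN replicates 2 and 3 stood well above. The difference was 0.64 ± 0.29 (SE) (limma adjusted p = 0.230). It was 0.93 without HEN replicate 1 (adjusted p = 0.00529), 0.42 without HEN replicate 2 and 0.072 without HEN replicates 2 and 3.

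MAP2K4 (ENSAPLG00000013074, scaffold KB742686.1 from 50688 to 114279), which activates JNK and p38, went the other way, at 14.7, 7.05 and 6.36 FPKM across HEN replicates 1, 2 and 3 and at 16.4, 18.1 and 21.2 FPKM across LEN replicates 1, 2 and 3. All HEN values lay below all LEN values. The difference was -1.00 ± 0.34 (SE) (limma adjusted p = 0.226), or -1.34 without HEN replicate 1 (adjusted p = 0.00173) and -0.31 without HEN replicates 2 and 3. MAP2K6, a p38 activator, was at 3.76, 1.51 and 1.93 FPKM in the HEN ducks against 2.98, 4.11 and 4.56 FPKM in the LEN ducks and differed by -0.56 ± 0.35 (SE), with HEN replicate 1 inside the LEN range. Its difference was -0.84 without HEN replicate 1 (limma adjusted p = 0.0449), -0.37 without HEN replicate 2 and -0.022 without HEN replicates 2 and 3. MAP2K5, which activates ERK5, was at 22.1, 45.8 and 39.0 FPKM in the HEN ducks against 30.3, 20.5 and 23.5 FPKM in the LEN ducks. It differed by 0.46 ± 0.32 (SE), or 0.77 without HEN replicate 1 (limma adjusted p = 0.0226). The difference was 0.26 without HEN replicate 2 and -0.14 without HEN replicates 2 and 3. MAP2K3, the other p38 activator, differed by 0.31 ± 0.24 (SE) with no overlap between groups, at 8.51 to 9.04 FPKM in HEN and 5.99 to 7.64 FPKM in LEN. MAP2K7, the partner of MAP2K4 in JNK activation, differed by -0.19 ± 0.21 (SE).

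Shares within a library do not depend on a factor that scales the library. They add up to the whole, so that a larger share of any gene leaves less for the others. Of the summed FPKM of the 6 MAP2K genes, MAP2K1 took 46.3%, 61.4% and 56.6% in HEN replicates 1, 2 and 3 and 41.3%, 46.3% and 42.0% in LEN replicates 1, 2 and 3. The share of MAP2K4 was 10.2%, 3.17% and 3.31% in HEN replicates 1, 2 and 3 and 11.1%, 12.5% and 14.0% in LEN replicates 1, 2 and 3. HEN replicates 2 and 3 thus had the largest MAP2K1 and the smallest MAP2K4 shares of the 6 libraries, and HEN replicate 1 lay just below the lowest LEN share of MAP2K4. Of the summed FPKM of the 11 MAP3K genes, MAP3K5 took 8.14%, 23.2% and 21.7% in HEN replicates 1, 2 and 3 and 7.40%, 8.22% and 5.55% in LEN replicates 1, 2 and 3, and MAP3K21 took 9.80%, 3.61% and 2.19% in HEN replicates 1, 2 and 3 and 12.7%, 10.8% and 10.7% in LEN replicates 1, 2 and 3.

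**Figure D4:**
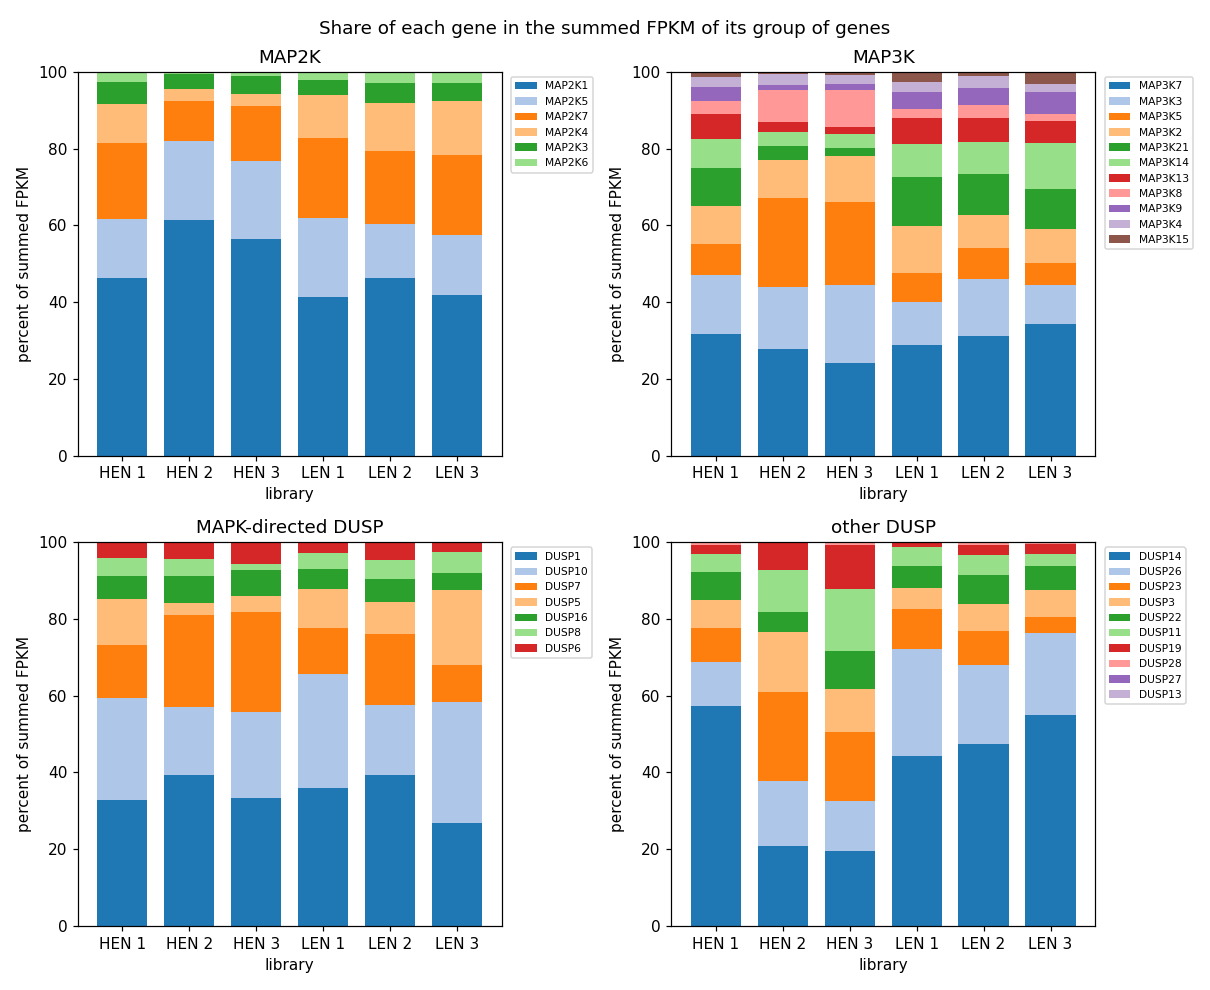
Share of each gene in the summed FPKM of its group of genes (vertical axis, percent; each bar adds up to the whole) in each of 6 libraries, for MAP2K genes, MAP3K genes, DUSP genes directed at MAPKs and other DUSP genes. In HEN replicates 2 and 3 the MAP2K1 and MAP3K5 segments are larger and the DUSP14 segment is smaller than in the other 4 libraries.

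Among the 11 effector kinases the groups overlapped throughout, while 20.3% of all transcripts did not overlap. Of these MAPK genes, 7 were higher and 4 lower in HEN (median 0.14, or 0.30 to 0.39 after scaling and -0.14 without HEN replicates 2 and 3). None had an unadjusted p under 0.05 in limma, against 22.0% of all transcripts. None was called without HEN replicate 1, against 48.8% of all transcripts. For MAPK14, MAPK6, MAPK8 and MAPK9, HEN replicate 1 lay within the LEN range and HEN replicates 2 and 3 above it. For MAPK4 the latter both lay below it. The groups of those genes thus overlapped through HEN replicate 1 alone. Of all transcripts, 12.1% and 28.3% took these positions. The p38 gene MAPK14 was at 57.8, 69.4 and 105 FPKM in the HEN ducks against 57.4, 68.4 and 53.9 FPKM in the LEN ducks. HEN replicate 3 stood apart above the other 5 libraries, and the difference was 0.33 ± 0.27 (SE). MAPK9, which encodes JNK2, was at 9.13, 15.3 and 12.5 FPKM in the HEN ducks against 9.72, 9.91 and 5.61 FPKM in the LEN ducks and differed by 0.51 ± 0.32 (SE), or 0.27 without LEN replicate 3 and 0.14 without HEN replicates 2 and 3. MAPK8, which encodes JNK1, was at 11.8, 14.8 and 13.4 FPKM in the HEN ducks against 11.5, 13.2 and 9.13 FPKM in the LEN ducks and differed by 0.23 ± 0.25 (SE).

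MAPK12, which encodes p38 gamma, was at 5.58, 12.9 and 7.53 FPKM across HEN replicates 1, 2 and 3 and at 11.7, 12.9 and 13.4 FPKM across LEN replicates 1, 2 and 3. HEN replicates 1 and 3 lay below the LEN range and HEN replicate 2 within it. This gene thus did not follow the split of the HEN libraries seen for MAP4K5, MAP3K5 and MAP3K8. The upstream genes MAP3K4 and MAP2K3 did not follow that split either. The difference of MAPK12 was -0.57 ± 0.33 (SE), or -0.32 without HEN replicate 1, -0.86 without HEN replicate 2 and -1.05 without HEN replicates 2 and 3. The p38 beta gene MAPK11, which lies on the same scaffold as MAPK12, was at 34.5, 60.1 and 34.7 FPKM in the HEN ducks against 38.2, 44.5 and 39.0 FPKM in the LEN ducks and differed by 0.039 ± 0.27 (SE). The atypical kinase gene MAPK4 was at 6.97, 4.63 and 4.33 FPKM in the HEN ducks against 10.1, 5.25 and 10.3 FPKM in the LEN ducks and differed by -0.57 ± 0.34 (SE), while its relative MAPK6 differed by 0.30 ± 0.29 (SE). MAPK10, the JNK gene known from mammalian brain, was low, at 0.987, 0.0909 and 0.749 FPKM in the HEN ducks against 0.665, 1.03 and 2.56 FPKM in the LEN ducks, and differed by -0.56 ± 0.42 (SE), or -0.30 without HEN replicate 2 and -0.24 without LEN replicate 3. MAPK13 and MAPK15 were also low, with means of 1.24 and 4.64 FPKM and differences of 0.21 ± 0.38 (SE) and -0.34 ± 0.48 (SE).

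The 3 MAPKAPK genes encode kinases that p38 and atypical MAPKs activate. MAPKAPK2, which controls the stability of cytokine messenger RNAs, was at 43.2, 45.2 and 52.6 FPKM across HEN replicates 1, 2 and 3 and at 37.2, 38.5 and 35.9 FPKM across LEN replicates 1, 2 and 3. All HEN values exceeded all LEN values, by a difference of 0.32 ± 0.20 (SE) with a limma adjusted p of 0.306. Its close relative MAPKAPK3 was at 5.31, 3.35 and 3.51 FPKM in the HEN ducks against 5.66, 7.69 and 6.39 FPKM in the LEN ducks. There all HEN values lay below all LEN values, with HEN replicate 1 nearest to LEN. The difference was -0.60 ± 0.28 (SE), or -0.77 without HEN replicate 1 (limma adjusted p = 0.0390) and -0.26 without HEN replicates 2 and 3. MAPKAPK5 was at 12.3, 6.97 and 8.27 FPKM in the HEN ducks against 13.4, 11.4 and 13.5 FPKM in the LEN ducks. It differed by -0.47 ± 0.28 (SE), or -0.68 without HEN replicate 1 (limma adjusted p = 0.0384). The difference was -0.31 without HEN replicate 2 and -0.042 without HEN replicates 2 and 3.

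Of the 17 DUSP genes, 7 encode the MAPK phosphatases proper, which carry a docking domain for their kinase. None of those had an unadjusted p under 0.05 in limma, against 22.0% of all transcripts. Their median difference was -0.19 (0.0015 to 0.094 after scaling). DUSP1, a nuclear phosphatase and immediate early gene, was the most abundant, at 55.5, 68.2 and 53.4 FPKM across HEN replicates 1, 2 and 3 and at 72.2, 72.1 and 57.9 FPKM across LEN replicates 1, 2 and 3. The groups overlapped and the difference was -0.19 ± 0.21 (SE). DUSP5, a nuclear phosphatase for ERK, was at 20.6, 5.58 and 6.76 FPKM across HEN replicates 1, 2 and 3 and at 20.8, 15.3 and 42.6 FPKM across LEN replicates 1, 2 and 3. HEN replicates 2 and 3 lay below the LEN range, HEN replicate 1 lay within it, and LEN replicate 3 was the highest of the 6 libraries. The difference was -1.27 ± 0.56 (SE) (limma adjusted p = 0.228), or -1.80 without HEN replicate 1 (adjusted p = 0.00543) and -0.21 without HEN replicates 2 and 3.

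The cytoplasmic ERK phosphatases did not share that pattern. DUSP6 was at 6.85, 7.85 and 9.02 FPKM in the HEN ducks against 5.78, 8.76 and 5.75 FPKM in the LEN ducks, with overlapping groups and a difference of 0.21 ± 0.27 (SE). DUSP7, needed for meiotic resumption in mouse oocytes, was at 23.5, 41.5 and 41.4 FPKM in the HEN ducks against 23.8, 33.9 and 20.5 FPKM in the LEN ducks. HEN replicates 2 and 3 lay above the LEN range, and the difference was 0.42 ± 0.32 (SE), or 0.68 without HEN replicate 1 (limma adjusted p = 0.0459), 0.27 without LEN replicate 3 and -0.11 without HEN replicates 2 and 3. The JNK and p38 phosphatase genes DUSP8, DUSP10 and DUSP16 gave -0.69 ± 0.40 (SE), -0.48 ± 0.32 (SE) and 0.10 ± 0.23 (SE). DUSP8 was at 8.25, 7.34 and 2.80 FPKM in the HEN ducks against 8.46, 9.02 and 11.9 FPKM in the LEN ducks, without overlap, although HEN replicate 1 was only just under LEN replicate 1. Its difference was -0.28 without HEN replicate 3 and -0.21 without HEN replicates 2 and 3. DUSP10 was at 45.2, 30.6 and 35.8 FPKM in the HEN ducks against 60.0, 33.6 and 68.6 FPKM in the LEN ducks, with overlap. Its difference ranged from -0.79 without LEN replicate 2 to -0.28 without LEN replicate 3, and was -0.19 without HEN replicates 2 and 3.

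The other 10 DUSP genes, most of which encode small phosphatases without the docking domain, held both of the most negative differences. Of the 7 tested, 3 were lower at an unadjusted p under 0.05 in limma, against 16.9% of all transcripts. That share is larger but rests on 7 genes only. The median difference was -0.47 (-0.24 to -0.16 after scaling and -0.13 without HEN replicates 2 and 3). DUSP26 (ENSAPLG00000003050, scaffold KB743642.1 from 146476 to 147936), a phosphatase best known from mammalian nervous tissue, had the smallest unadjusted p of the 54 genes (0.00127, limma). It was at 24.9, 14.4 and 10.2 FPKM across HEN replicates 1, 2 and 3 and at 80.4, 45.3 and 66.0 FPKM across LEN replicates 1, 2 and 3. The highest HEN value lay well below the lowest LEN value. Its mean was 16.5 ± 7.54 FPKM (SD, n = 3) in HEN against 63.9 ± 17.6 FPKM (SD, n = 3) in LEN, a difference of -1.94 ± 0.37 (SE) with an adjusted p of 0.226. HEN replicate 1 was low with the other HEN libraries here. The difference was -1.29 without HEN replicates 2 and 3 and -2.26 without HEN replicate 1, where limma called it (adjusted p = 0.000371) along with 48.8% of all transcripts. Within the summed FPKM of these 10 genes, DUSP26 took 11.5%, 16.7% and 13.2% in HEN replicates 1, 2 and 3 and 27.9%, 20.6% and 21.5% in LEN replicates 1, 2 and 3, so that its share too was lower in every HEN library than in any LEN library.

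DUSP14 (ENSAPLG00000011641, scaffold KB742616.1 from 282842 to 283438), which dampens T cell receptor signalling in mammals, was at 124, 18.0 and 15.2 FPKM across HEN replicates 1, 2 and 3 and at 127, 104 and 169 FPKM across LEN replicates 1, 2 and 3. HEN replicates 2 and 3 had far lower values than the other 4 libraries, among which HEN replicate 1 lay inside the LEN range. At the inferred depths its values over the annotated span of 597 bases came to whole fragments in every library. The span was therefore taken as a single interval. The values were 1402, 201 and 165 fragments in HEN replicates 1, 2 and 3 and 1460, 1234 and 1846 in LEN replicates 1, 2 and 3. The exact Poisson 95% interval of 201 fragments runs from 174 to 231 and that of 1234 from 1166 to 1305, so that the gap is far beyond counting error. The intervals cover counting error only, since copies made by PCR cannot be separated. The difference was -1.97 ± 0.75 (SE) (limma adjusted p = 0.226), or -2.91 without HEN replicate 1 (adjusted p = 5.41e-05) and -0.080 without HEN replicates 2 and 3. The oocyte, granulosa and cell cycle sums were lowest in the same pair of libraries, and the leukocyte, endothelial and erythrocyte sums were highest. Any relation of these sums to DUSP14 was not tested.

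DUSP22, a regulator of JNK signalling, was at 15.7, 4.39 and 7.72 FPKM across HEN replicates 1, 2 and 3 and at 16.4, 16.8 and 19.2 FPKM across LEN replicates 1, 2 and 3. The groups did not overlap, HEN replicate 1 being just under LEN replicate 1, and the difference was -1.00 ± 0.42 (SE), or -1.43 without HEN replicate 1 (limma adjusted p = 0.00297), -0.61 without HEN replicate 2 and -0.14 without HEN replicates 2 and 3. DUSP3, a small phosphatase for ERK and JNK, was at 15.8, 13.4 and 8.66 FPKM in the HEN ducks against 15.7, 15.7 and 21.3 FPKM in the LEN ducks and differed by -0.47 ± 0.29 (SE), or -0.24 without HEN replicate 3. DUSP11, an RNA phosphatase despite its name, DUSP19, a JNK pathway scaffold, and DUSP23 differed by -0.13 ± 0.25 (SE), 0.27 ± 0.36 (SE) and -0.16 ± 0.34 (SE), with overlapping groups.

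Among the 6 inhibitors of the SPRY and SPRED families, 4 were higher and 2 lower in HEN (median 0.14, or 0.35 to 0.43 after scaling and -0.14 without HEN replicates 2 and 3), and the largest differences pointed in opposite directions. SPRED1, which brings the RAS inhibitor neurofibromin to the membrane, was at 13.2, 27.9 and 26.9 FPKM across HEN replicates 1, 2 and 3 and at 10.5, 16.2 and 9.06 FPKM across LEN replicates 1, 2 and 3. HEN replicates 2 and 3 lay above the LEN range and HEN replicate 1 within it. The difference was 0.84 ± 0.37 (SE), or 1.18 without HEN replicate 1 (limma adjusted p = 0.00729) and 0.18 without HEN replicates 2 and 3. SPRY4, an ERK-induced inhibitor of the same step, was at 4.27, 1.36 and 0.488 FPKM across HEN replicates 1, 2 and 3 and at 3.81, 5.77 and 4.61 FPKM across LEN replicates 1, 2 and 3. Its span of 900 bases, taken as a single interval as for DUSP14, gave 73, 23 and 8 fragments in HEN and 66, 103 and 76 fragments in LEN. The exact Poisson 95% interval was 14.6 to 34.5 for 23 fragments and 3.45 to 15.8 for 8, both below the 51.0 to 84.0 of the lowest LEN library. The difference was -1.10 ± 0.49 (SE), or -1.60 without HEN replicate 1 (limma adjusted p = 0.00457), -0.69 without HEN replicate 3 and -0.11 without HEN replicates 2 and 3. SPRY2, the most abundant of the 6, was at 22.9, 20.3 and 13.6 FPKM in the HEN ducks against 29.8, 21.6 and 27.1 FPKM in the LEN ducks, with HEN replicate 1 inside the LEN range and a difference of -0.47 ± 0.27 (SE), or -0.26 without HEN replicate 3. SPRED2 was at 11.8, 14.6 and 12.4 FPKM in the HEN ducks against 11.9, 14.9 and 6.74 FPKM in the LEN ducks, with every HEN value within the LEN range. Its difference of 0.25 ± 0.32 (SE) became -0.042 without LEN replicate 3. SPRY1 and SPRY3 differed by 0.033 ± 0.26 (SE) and 0.26 ± 0.35 (SE).

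Genes that act around these kinases were read from 7 lists, and no gene of any list passed over all transcripts. The counts that follow are at an unadjusted p under 0.05, where all transcripts gave 5.1% higher and 16.9% lower. Of 29 RAS and RAF genes tested, 0 were higher and 1 lower, with a median difference of -0.20 (-0.10 without HEN replicates 2 and 3). That gene was MOS, the oocyte kinase that starts the ERK chain in meiosis, at 65.9, 0.102 and 0.157 FPKM across HEN replicates 1, 2 and 3 and at 92.3, 51.3 and 94.8 FPKM across LEN replicates 1, 2 and 3. It was near 0 in HEN replicates 2 and 3, where the summed oocyte and germ cell markers were also lowest. MOS differed by -4.14 ± 1.52 (SE), or -0.21 without HEN replicates 2 and 3. BRAF, the main activator of MEK, was at 11.4, 3.44 and 4.93 FPKM in the HEN ducks against 14.2, 9.78 and 14.6 FPKM in the LEN ducks and differed by -0.99 ± 0.42 (SE), or -0.15 without HEN replicates 2 and 3. Of 17 scaffolds and adaptors, 0 were higher and 3 lower (median -0.17, or 0.044 without HEN replicates 2 and 3). TAB1, the activating partner of TAK1, overlapped between groups and differed by -0.82 ± 0.32 (SE), or -0.28 without HEN replicates 2 and 3.

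Of 18 receptor tyrosine kinases, 1 was higher and 2 lower (median 0.16, or 0.29 without HEN replicate 1 and 0.027 without HEN replicates 2 and 3). RET, the receptor of the GDNF family, was at 5.96, 0.366 and 0.918 FPKM in the HEN ducks against 8.96, 7.92 and 10.1 FPKM in the LEN ducks, and ERBB4, a receptor for neuregulins, at 2.08, 0.957 and 0.0725 FPKM in the HEN ducks against 5.05, 2.49 and 4.81 FPKM in the LEN ducks. Both had no overlap between groups and differed by -1.92 ± 0.60 (SE) and -1.41 ± 0.47 (SE), or -0.52 and -0.69 without HEN replicates 2 and 3. Of 26 growth factor ligands, 0 were higher and 7 lower (median -0.45, or -0.86 without HEN replicate 1 and 0.075 without HEN replicates 2 and 3). BDNF, a neurotrophin, was at 28.1, 1.16 and 0.597 FPKM in the HEN ducks against 44.9, 23.5 and 73.7 FPKM in the LEN ducks and differed by -3.24 ± 1.09 (SE), or -0.59 without HEN replicates 2 and 3. HBEGF, a ligand of the EGF receptor, was at 18.6, 8.02 and 7.97 FPKM in the HEN ducks against 25.3, 18.9 and 38.7 FPKM in the LEN ducks and differed by -1.24 ± 0.41 (SE), or -0.49 in the same alternative.

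Below the MAPKs, 0 of 7 downstream kinases were higher and 1 was lower (median 0.051, or 0.0060 without HEN replicate 1 and 0.062 without HEN replicates 2 and 3). RPS6KA1, which encodes the ERK-activated kinase RSK1, was at 55.2, 14.5 and 18.2 FPKM across HEN replicates 1, 2 and 3 and at 72.4, 74.9 and 106 FPKM across LEN replicates 1, 2 and 3. All HEN values lay below all LEN values, and the difference was -1.72 ± 0.49 (SE), or -0.58 without HEN replicates 2 and 3. RPS6KA2, its relative, also had no overlap, at 2.33, 1.97 and 1.52 FPKM in the HEN ducks against 3.36, 3.01 and 5.25 FPKM in the LEN ducks, with a difference of -0.71 ± 0.31 (SE). Of 19 transcription factors and early response genes tested, 2 were higher and 0 lower (median 0.17, or 0.36 without HEN replicate 1 and 0.10 without HEN replicates 2 and 3). ELK3, a factor that ERK phosphorylates, was at 16.9, 43.0 and 31.9 FPKM in the HEN ducks against 12.0, 16.6 and 8.48 FPKM in the LEN ducks, without overlap, and differed by 1.19 ± 0.40 (SE), or 0.47 without HEN replicates 2 and 3. The stress factor gene ATF3 was at 8.67, 35.0 and 16.6 FPKM in the HEN ducks against 5.07, 9.87 and 5.63 FPKM in the LEN ducks and differed by 1.27 ± 0.51 (SE), or 0.35 in that alternative. Of 20 other phosphatases and STE20 kinases, 1 was higher and 0 lower (median -0.034, or -0.053 without HEN replicate 1 and 0.014 without HEN replicates 2 and 3). STK3, a kinase of the Hippo pathway, was at 35.8, 81.0 and 58.2 FPKM in the HEN ducks against 30.3, 33.2 and 21.1 FPKM in the LEN ducks and differed by 0.97 ± 0.35 (SE), and STK25 differed by -0.95 ± 0.45 (SE). Without HEN replicates 2 and 3 their differences were 0.36 and 0.094.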

How the data were processed

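The deposited values are FPKM, per the name the authors gave their table, with 1 column per duck and 17191 rows of Ensembl duck transcripts, of which 22 repeat a transcript with the same values. RNA was extracted with TRIzol and libraries were made by a standard Illumina method, per the labels' protocols. For the aligner, counting tool, strandedness and build, nothing is given in the sources used here. By symbol, 59 rows of 57 genes matched, and MAP3K20, named through its Entrez identifier alone, was not included. None of the 57 overlaps another gene, but fragments of related family members could have been split between them. Genes of the lists were also named through Entrez identifiers and a RefSeq gene table of another assembly (710 transcripts).

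Depth was inferred from the smallest steps in the FPKM values of noncoding genes of at most 400 bases, whose values under 200 fragments were all whole within 0.02. At these depths 3 fragments on 1 kb equal 0.151 to 0.165 FPKM. The group difference was tested with limma 3.58.1 (R 4.3.3) on log2(FPKM + 1), which understates changes of low genes. Tested were the 13328 transcripts averaging 1 FPKM or more (moderated test with trend, group as the only term, two-sided, Benjamini-Hochberg adjustment, threshold 0.05). No count test was run. Each library is 1 duck, and no label gave a batch. The genes, lists and alternatives were chosen with earlier results of these data known. Named with all values were, in each group of genes, the most abundant and up to 4 with the smallest unadjusted p (33 genes), and up to 2 genes per list; others are named for their role, and some are not reported here.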

Additional observations from a re-analysis of the deposited data

How the results depend on the processing

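The number of the 54 genes called was 0 in all settings except the arrayWeights fit (31) and without HEN replicate 1, and 0 to 22 on leaving out single libraries. Over all transcripts it was 0, or 1 with a pseudocount of 0.1, 7922 with arrayWeights and 1 with HEN replicates 2 and 3 left out, and 0 to 6501 without single libraries. Non-overlapping genes numbered 12 to 36 without single libraries. There were 36 without HEN replicate 1 (66.7%, against 70.5% of all transcripts) and 29 without LEN replicate 2 (53.7%, against 39.1%). The count was 15 without HEN replicate 2, 12 without HEN replicate 3, 17 without LEN replicate 1 and 13 without LEN replicate 3. Fewer values can overlap whenever a library is left out. The 36 were the 12 genes without overlap in all 6 libraries and those in which only HEN replicate 1 lay within the LEN range. Of the latter, 13 had HEN replicates 2 and 3 above that range and 11 had both below it. The reason for the count of 29 was not tested. The median difference was -0.038, against 0.036 with a mean of at least 5 FPKM, where fewer genes were tested, and 0.24, 0.20 and 0.21 after scaling by trimmed means, to the upper quartile or by quantiles, which shift every gene. It ranged from -0.095 to 0.022 without single libraries. Of the 33 genes named by rule, 25 passed with arrayWeights (59.4% of all transcripts did) and 19 without HEN replicate 1 (48.8% of all transcripts). These genes were chosen partly for a small unadjusted p in the main fit of the same data, so the counts are not support. None changed direction with a pseudocount of 0.1. Leaving out the trend or the filter cannot change a difference, and FPKM summed per symbol left those of the 33 genes unchanged. DUSP1 reversed to 0.094, 0.052 and 0.0015 and MAP3K7 to 0.17, 0.13 and 0.12 under the 3 scalings. With HEN replicates 2 and 3 left out, DUSP7, MAP2K5, MAP4K3 and MAP4K5 reversed to -0.11, -0.14, -0.032 and -0.025. SPRED2 ranged from -0.042 without LEN replicate 3 to 0.48 without LEN replicate 2. The cause was not tested. With the replicate number as a block, limma called 0 of the 54 genes and 0 of all transcripts, and 9 and 2800 had an unadjusted p under 0.05. Deviations from the group means correlated at 0.017, 0.38 and -0.42 for same-numbered libraries and at -0.49 to 0.46 for the others. With 3 libraries per group and the split within HEN, these values cannot decide whether the numbers pair the ducks. Genes near 1 FPKM, such as MAPK10 and MAPK13, rest on few fragments, and absence of a call at 3 ducks per group does not show equal levels.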
